A study of Aedes aegypti with 33 samples.

Results

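A group of 94 genes, of the 19712 annotated Ae. aegypti genes counted, was higher with heme in each of 3 experiments on Aag2 cells, a continuous cell line of the yellow fever mosquito Ae. aegypti. The members were chosen on the values themselves. Counts were scaled to CPM, the usual unit of counts relative to the library total, and the change with heme was taken as the log2 ratio of the group means after adding 1 CPM to each. The median change over all genes averaging 5 CPM or more was then subtracted, which gave the centred change used throughout for Aag2 cells. A gene was kept when its centred change was at least 1 between 10 μM and 0 μM heme in Schneider’s Drosophila medium, at least 1 between the same doses in L-15 medium, and at least 0.5 when 20 μM heme was added to medium with serum. Alone, these criteria held for 644, 1202 and 526 genes. Because these 18 libraries chose the members, their values are given as a description and carry no test.

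At 72 h, Aag2 cells were compared in both media under 3 treatments, which were 10% fetal bovine serum (FBS, the regular growth condition), serum-free medium (0 μM heme) and serum-free medium with 10 μM heme. A separate 48 h experiment used Schneider’s medium and 10% FBS throughout, alone or with 20 μM heme added to the Aag2 cells. A20 cells, another Ae. aegypti line, were grown for 72 h in L-15 with 10% FBS, in the serum-free medium SF900 II (0 μM heme), or in SF900 II with 10 μM heme. Thus the A20 cells changed basal medium and lost serum together, and these factors cannot be told apart there. Apart from the cell line the labels name no genotype or strain, and the FBS itself carries heme proteins. Each of the 11 groups held 3 biological replicates, 33 libraries in all, with 22860764 to 38002762 counted reads per library. The 48 h libraries were made with another library kit than the rest according to the sample labels. Neither line has a fixed set of marker genes, so the identity of the cells was taken from the labels.

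Heme is the iron-containing prosthetic group of hemoglobin, cytochromes and many enzymes, and a female mosquito takes in a large amount of it with each blood meal. Free heme reacts with peroxides and inserts into membranes, so cells bind, transport, store or break it down. Cysteine is a building block of glutathione, the main thiol that buffers oxidants in animal cells, and UDP-sugar transferases attach sugars to small lipophilic compounds so that they can be exported. For most of the 94 members the sources used here give only an AAEL identifier, and those genes are named by it alone.

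Among members with a stated role, AAEL008664 is a protein of unknown function predicted to lie in membranes, which the study chose for knockdown by RNA interference. It is the 1 member with designed sequences, and the 6 primers that address it are shown because they define which stretches of the transcript were targeted or measured. They stand 5′ to 3′ without the T7 promoter tail, and capitals mark 11 bases shared, as reverse complements, by 2 primers.
Pair 1 forward, for double-stranded RNA: AAAATGGGCGCaaacttcc
Pair 1 reverse: ccaacgccaggtaatcttc
Pair 2 forward, for double-stranded RNA: aagttcgcggcccaagttc
Pair 2 reverse: GCGCCCATTTTccgtctcg
RT-qPCR forward: gacattggcccgtgtgttg
RT-qPCR reverse: aagcattacgatcggaaccc
The forward primer of pair 1 and the reverse primer of pair 2 thus meet at these 11 bases, so the pairs address neighbouring stretches of the transcript.

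The centred change of the 94 members ranged from 1.02 to 6.87 in Schneider’s medium with a median of 1.87, from 1.00 to 5.69 in L-15 medium with a median of 1.74, and from 0.50 to 6.90 at 48 h with a median of 0.90. A change of at least 2 in all 3 experiments was reached by 10 members and of at least 1 by 41. The largest of a gene’s 3 changes was in Schneider’s medium for 52 members, in L-15 medium for 38 and at 48 h for 4. Every library in 10 μM heme was above every library in 0 μM heme for all 94 members in Schneider’s medium, where 33.4% of all genes with a count did so. The same held for all 94 in L-15 medium (36.9% of genes). At 48 h every library with 20 μM heme was above every library with FBS alone for 92 members (16% of genes). The rule used these contrasts, so nothing is read from these counts. The exceptions at 48 h were AAEL024086 and AAEL019818. AAEL019818 was at 1.86, 1.65 and 4.92 CPM before and at 6.92, 2.34 and 4.12 CPM after heme was added to FBS, so that its groups overlapped.

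**Figure D1:**
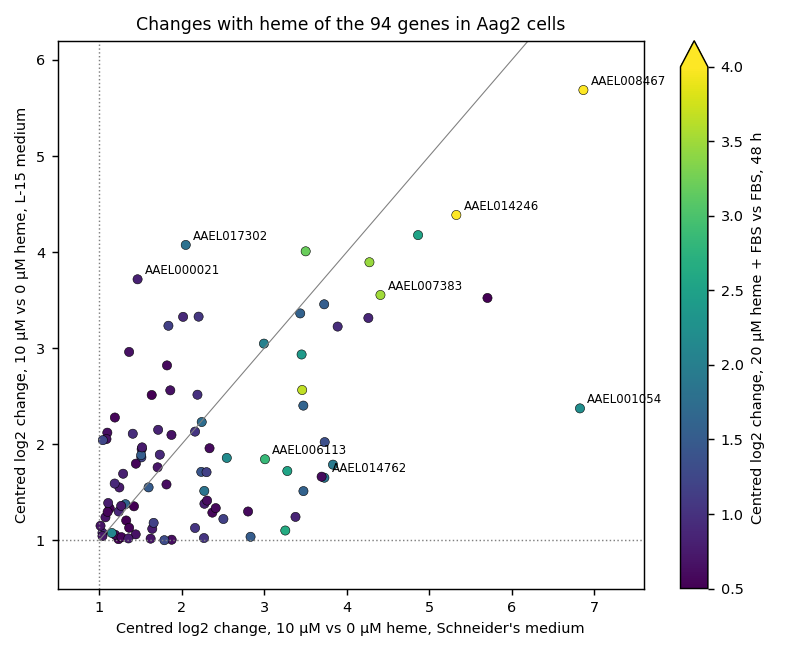
Centred log2 change with heme of the 94 members in Schneider’s medium (x axis) and in L-15 medium (y axis), 10 μM against 0 μM heme at 72 h, coloured by the centred log2 change with 20 μM heme at 48 h. Dotted lines are the thresholds of 1 and the solid line marks equal change. AAEL008467 stands at the upper right at 6.87 and 5.69, and AAEL001054 lies far below the line.

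AAEL008467, annotated as a cysteine synthase, an enzyme that makes cysteine, had the largest smallest change of all members. In Schneider’s medium it was at 7.37, 8.13 and 8.25 CPM in 0 μM heme and at 1133, 1152 and 1042 CPM in 10 μM heme. In L-15 medium it went from 17.1, 15.9 and 18.7 CPM to 847, 968 and 1085 CPM. At 48 h it was at 6.32, 6.67 and 6.35 CPM with FBS and at 791, 1030 and 843 CPM with 20 μM heme added. The heme groups of all 3 experiments thus met near the same level, and the gap to the groups without added heme was many times the spread of the replicates. With FBS at 72 h the gene lay above 0 μM heme in Schneider’s medium, at 71.9, 20.7 and 22.8 CPM, and below it in L-15 medium, at 2.30, 2.04 and 1.90 CPM.

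AAEL006113, annotated as cystinosin, which carries cystine out of lysosomes into the cytosol where it is reduced to cysteine, had centred changes of 3.01, 1.85 and 2.85 in Schneider’s medium, L-15 medium and at 48 h. In Schneider’s medium its level was 17.9 ± 1.29 CPM in 0 μM heme, and 10 μM heme brought 161 ± 8.96 CPM (SD, n = 3 each). In L-15 medium the levels were 45.7 ± 3.81 and 172 ± 13.1 CPM, and at 48 h 18.4 ± 0.32 and 139 ± 10.0 CPM. As for the cysteine synthase, the level with heme varied less between experiments than the level without it, so the smaller change in L-15 medium went with a higher starting level.

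AAEL014246, annotated as a glucosyl or glucuronosyl transferase, had the next largest smallest change. Its level was 10.5, 12.1 and 14.1 CPM in 0 μM heme, against 566, 579 and 547 CPM with 10 μM heme, in Schneider’s medium. In L-15 medium it was 7.76, 8.73 and 8.12 against 172, 203 and 217 CPM, and at 48 h 13.2, 15 and 19.6 against 256, 339 and 285 CPM. No library with heme came near one without it, and the highest levels were those in Schneider’s medium. AAEL014244, the gene on the next row of the deposited tables, moved beside it with centred changes of 4.28, 3.90 and 3.46. It stood at 533 ± 16.0 CPM in Schneider’s medium with 10 μM heme and at 24.9 ± 1.65 CPM without (SD, n = 3 each).

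AAEL014762, annotated as a zinc and iron transporter of the ZIP family, differed between media. The paper places this iron transporter in endocytic vesicles and describes it as important for iron export from the midgut. It was at 56.4, 61.6 and 59.0 CPM in 0 μM heme and at 834, 900 and 810 CPM in 10 μM heme in Schneider’s medium. In L-15 medium it was already at 237, 232 and 243 CPM in 0 μM heme and reached 755, 749 and 809 CPM. At 48 h it was at 78.5, 83.2 and 76.0 CPM with FBS and at 287, 305 and 281 CPM with heme. The levels with 10 μM heme were thus close in both media while those in 0 μM heme were not, and the centred change was 3.73 in Schneider’s against 1.65 in L-15 medium.

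AAEL008664, the membrane protein of the primers above, had changes near the thresholds. It was at 99.4, 103 and 111 CPM in 0 μM heme and at 242, 245 and 221 CPM in 10 μM heme in Schneider’s medium. In L-15 medium it was at 160, 157 and 158 against 370, 394 and 397 CPM, and at 48 h at 80.4, 80.4 and 81.8 against 130, 140 and 120 CPM. The centred changes were 1.08, 1.24 and 0.68, small beside most members, but the replicates were tight and the groups did not overlap. AAEL009813, annotated as a glutamate receptor, was likewise a weakly changed member, with centred changes of 1.27, 1.03 and 0.55. Its level in 10 μM heme was 16.9 ± 1.42 CPM in Schneider’s medium and 82.7 ± 7.63 CPM in L-15 medium (SD, n = 3 each). AAEL010242, annotated as a putative secreted protein, was low throughout, at 12.2 ± 1.38 CPM (SD, n = 3) in its highest group, Schneider’s medium with 10 μM heme.

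**Figure D2:**
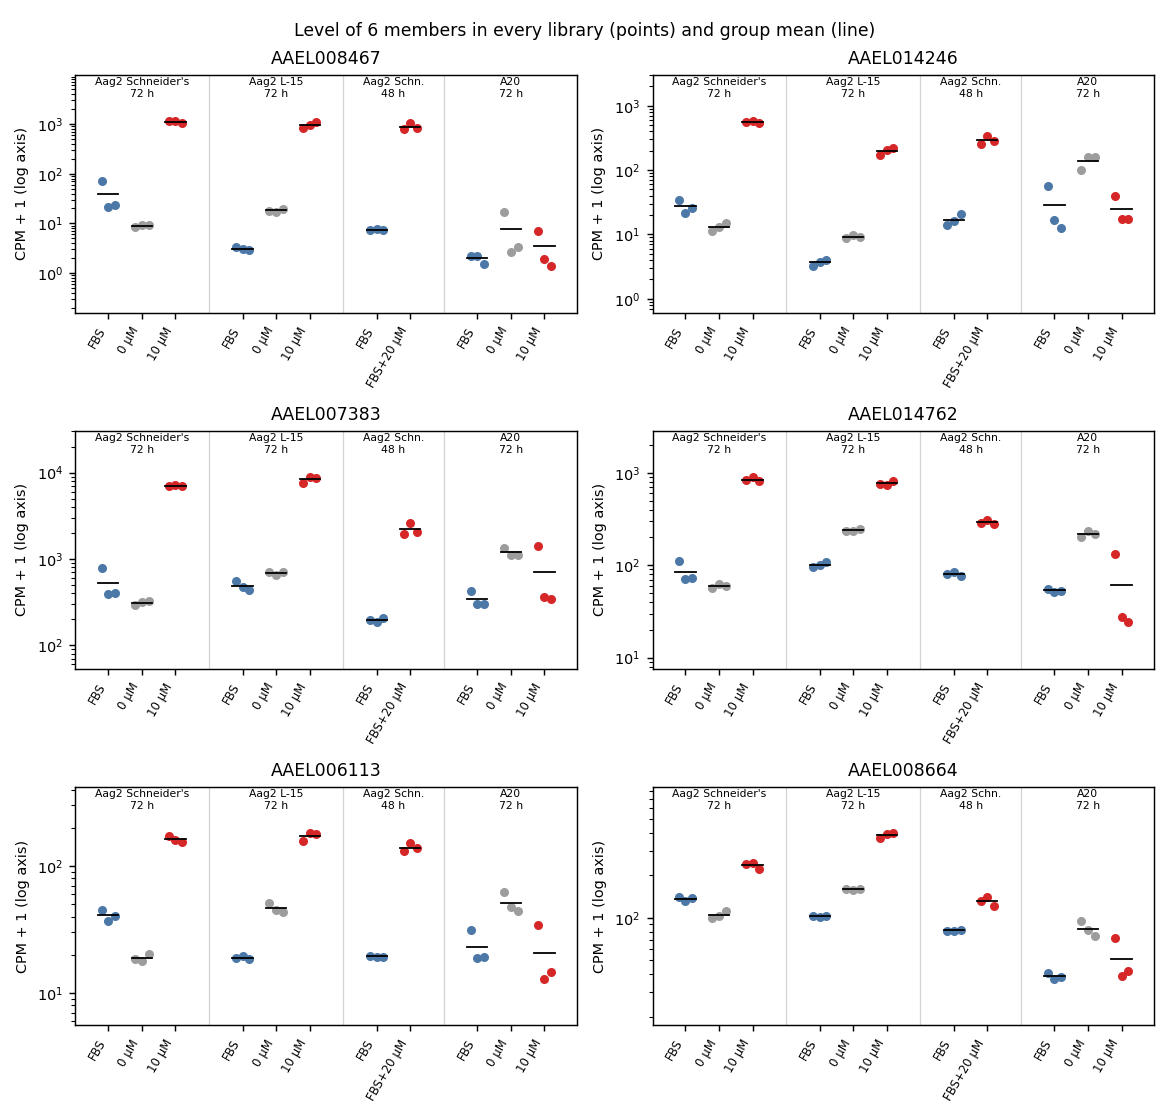
Level of 6 members in every library (points, CPM + 1 by library total on a log axis) with the group mean (line), for the 4 experiments and their groups. In Aag2 cells every heme library (red) lies above every library of its experiment without added heme, whereas in A20 cells the red points do not rise above the grey points of 0 μM heme as a group.

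Of the 10 members with a change of at least 2 in every experiment, the remaining genes carry no annotation in the sources used. AAEL007383 went from 290, 314 and 323 CPM to 6952, 7196 and 6926 CPM in Schneider’s medium and from 710, 655 and 707 CPM to 7545, 8853 and 8715 CPM in L-15 medium. At 48 h the means were 194 ± 11.4 and 2202 ± 336 CPM (SD, n = 3 each). It was among the most abundant members in every Aag2 heme group, as was AAEL007385. AAEL007385 stood at 3931 ± 127 and 4012 ± 321 CPM with 10 μM heme in the 2 media and at 1621 ± 243 CPM with 20 μM heme (SD, n = 3 each). The smallest changes of AAEL017320, AAEL012654, AAEL010500, AAEL001054 and AAEL013458 were 3.19, 2.57, 2.53, 2.22 and 2.02. AAEL017320, AAEL012654 and AAEL013458 were at 11.6 ± 1.16, 23.1 ± 6.97 and 9.40 ± 0.89 CPM at 48 h with heme (SD, n = 3 each).

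Abundance was very uneven. Over the heme groups of Aag2 cells, 31 members had a mean of at least 100 CPM, 68 of at least 10 CPM and all 94 of at least 1 CPM. AAEL001061, AAEL007383, AAEL007385 and AAEL026751 held between 61.1% and 69.8% of the summed CPM of the members in any Aag2 library. AAEL001061 had the highest mean over the heme groups, with 8800 ± 258 CPM in Schneider’s medium with 10 μM heme (SD, n = 3), although its centred changes were only 1.24, 1.30 and 0.90. AAEL026751 reached 3212 ± 257 CPM in Schneider’s and 4432 ± 141 CPM in L-15 medium with 10 μM heme. AAEL013407, AAEL005142 and AAEL024741 were also among the 10 highest, with 1111 ± 26.9, 1103 ± 97.0 and 695 ± 24.8 CPM in Schneider’s medium with 10 μM heme (SD, n = 3 each). All these levels are per library and not per transcript length, so they rank genes by reads and not by molecules.

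The summed level of the members follows from how they were chosen. In Schneider’s medium it was 7147 ± 331 CPM without and 36719 ± 1049 CPM with 10 μM heme, against 7438 ± 64.9 and 32766 ± 2167 CPM in L-15 medium (SD, n = 3 each). At 48 h it was 8011 ± 108 CPM with FBS and 20875 ± 1484 CPM with FBS and heme (SD, n = 3 each). Replicates were close. The median coefficient of variation of members at 10 CPM or more was 6.28% in Schneider’s medium with 10 μM heme (70 members), 7.78% in L-15 medium (73 members) and 8.40% at 48 h with heme (46 members).

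**Figure D3:**
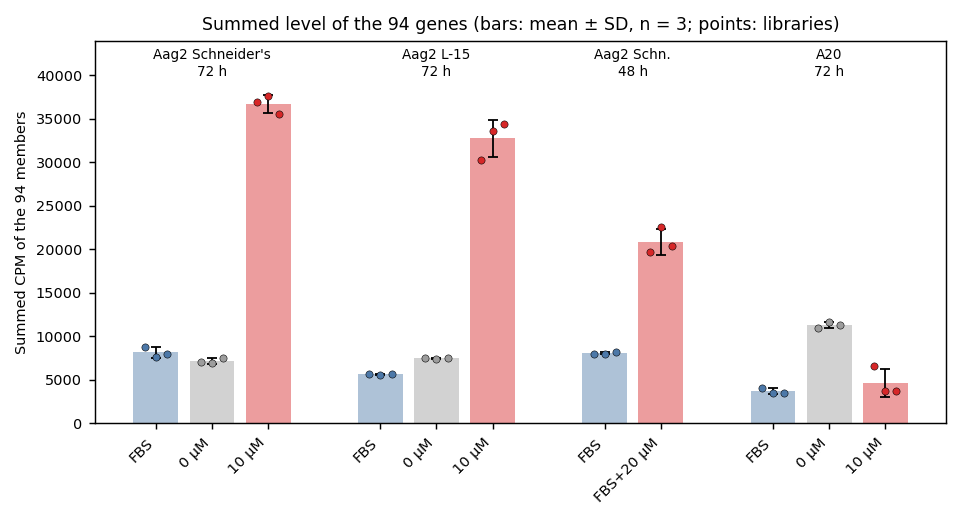
Summed CPM of the 94 members (y axis, CPM by library total) in each group of the 4 experiments. Bars are means, error bars SD over 3 libraries and points single libraries. The 10 μM heme bars of Aag2 cells stand near 36719 and 32766, and in A20 cells the highest bar is that of 0 μM heme at 11264.

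The media differed in how strongly single members changed. The change in Schneider’s medium exceeded that in L-15 medium by at least 1 for 20 members and the reverse held for 8. A gap of at least 2 towards Schneider’s medium was found for AAEL014762, AAEL010205, AAEL001054, AAEL009128, AAEL009127, AAEL009537 and AAEL020339, and towards L-15 medium for AAEL000021 and AAEL017302. AAEL001054 was at 2.26, 2.08 and 2.76 CPM in 0 μM heme and at 456, 444 and 319 CPM in 10 μM heme in Schneider’s medium. In L-15 medium the same gene was at 0.76, 0.96 and 1.71 CPM and at 10.3, 8.92 and 12.1 CPM. AAEL001054 was low without heme in both media, and its 10 μM groups were far apart. AAEL017302 showed the other direction. Its level rose from 137 ± 9.54 to 609 ± 50.7 CPM in Schneider’s and from 11 ± 0.30 to 207 ± 18.0 CPM in L-15 medium (SD, n = 3 each), so its larger change in L-15 medium came with a lower level there. These differences were not tested, since both changes chose the members.

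At 48 h heme was added to serum instead of to serum-free medium, and the threshold there was 0.5 against 1 at 72 h, so the medians are not comparable. A gene’s largest change was at 48 h for AAEL008467, AAEL012654, AAEL011029 and AAEL021101. AAEL011029 was at 0, 0.04 and 0 CPM with FBS and at 2.74, 4.94 and 2.39 CPM with heme. AAEL010205 stood at the other end, with centred changes of 5.71 and 3.52 at 72 h but 0.51 at 48 h, where it was below 1.1 CPM in every library. The dose, the time, the serum and the library kit all differ from the 72 h experiments and cannot be told apart.

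Some members lay next to each other in the deposited tables. Whether the rows follow the position of genes on the AaegL5 assembly was not checked. There were 7 pairs of members on adjacent rows, among them AAEL014244 with AAEL014246, AAEL009128 with AAEL009124, AAEL019574 with AAEL010500, and AAEL017302 with AAEL017320. How many such pairs another set of genes would hold was not counted. Where neighbours are near-identical copies, counting could split or share reads between them, and this was not tested.

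Values at the thresholds show how the rule cuts a continuous range. For Schneider’s medium the members closest to the threshold were AAEL025873, AAEL007156 and AAEL004281, with centred changes of 1.02, 1.04 and 1.04, and AAEL024792, AAEL003133 and AAEL021557 missed it with 0.99, 0.99 and 0.97. In L-15 medium AAEL005617, AAEL026670 and AAEL012297 passed with 1.003, 1.008 and 1.014, while AAEL022864, AAEL002373 and AAEL000028 missed it with 0.996, 0.950 and 0.950. At 48 h AAEL023810, AAEL004273 and AAEL010205 passed with 0.502, 0.508 and 0.509, and AAEL013872, AAEL007693 and AAEL004979 missed the threshold of 0.5 with 0.498, 0.496 and 0.492.

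Serum offers a further view of the members, although the FBS groups are compared here with libraries that chose them, so no test is given. In Schneider’s medium the mean with FBS lay between those of 0 μM and 10 μM heme for 80 members and below 0 μM heme for 14. In L-15 medium it lay between them for 28 members and below 0 μM heme for 66. No member had a mean with FBS above that with 10 μM heme in either medium. The median log2 difference between FBS and 0 μM heme was 0.43 over the members and 0.02 over all genes with at least 5 CPM in Schneider’s medium, and -0.40 against -0.20 in L-15 medium. The members thus lay mostly above 0 μM heme with serum in the first medium and mostly below it in the second, and 57 did both. At least 2-fold differences between FBS and 0 μM heme were found for 12 members in Schneider’s medium, all higher with FBS. In L-15 medium they were found for 7 that were higher and 23 that were lower with FBS. The shares of all genes at these positions and differences were not counted, so none of these counts is read as particular to the members.

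Single members show the contrast between media. AAEL010500 was at 77.6, 26.2 and 37.2 CPM with FBS and at 12.4, 13.2 and 17.4 CPM in 0 μM heme in Schneider’s medium. In L-15 medium it was at 31.1, 29.3 and 31.5 CPM with FBS and at 47.8, 46.7 and 53.9 CPM in 0 μM heme. The order of the FBS and 0 μM groups was therefore opposite in the 2 media, without overlap in either. AAEL004588 had the lowest position in L-15 medium, at 1.32 ± 0.25 CPM with FBS, 24.8 ± 2.02 CPM without serum or heme and 156 ± 17.7 CPM with 10 μM heme (SD, n = 3 each). AAEL010205 was one of 23 members that were higher with FBS in both media, at 11.2 ± 0.95 against 2.46 ± 0.56 CPM in Schneider’s and 11.2 ± 1.13 against 4.04 ± 0.63 CPM in L-15 medium (SD, n = 3 each). Replicate 1 with FBS in Schneider’s medium was at least 1.5-fold above both other replicates for 12 members and for 0.766% of genes with at least 5 CPM. Without any 1 library of the experiment, the number of members between the 0 μM and 10 μM groups was 77 to 82 in Schneider’s and 24 to 29 in L-15 medium.

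**Figure D4:**
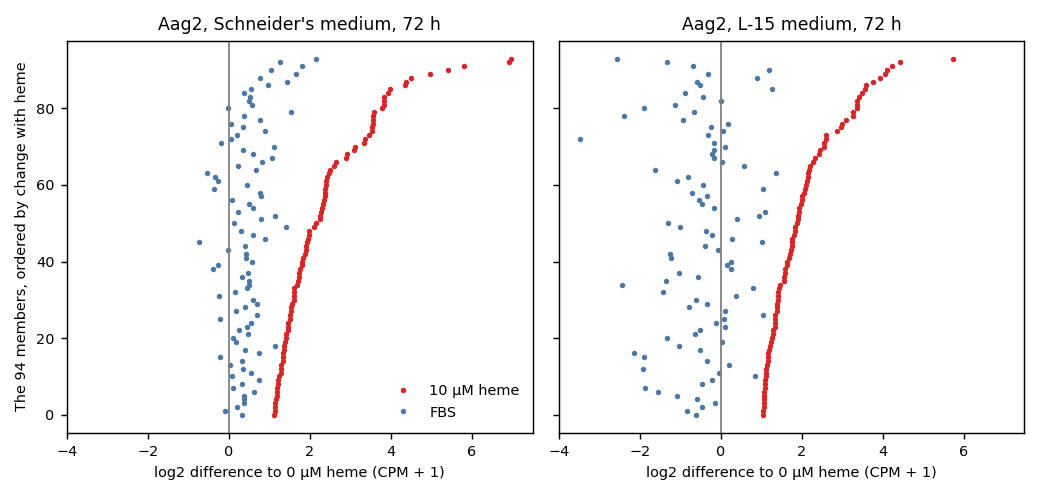
Log2 difference to the 0 μM heme mean (x axis, CPM + 1) of the 10 μM heme mean (red) and the FBS mean (blue) for each of the 94 members, ordered by their change with heme (y axis), in both media at 72 h. In Schneider’s medium 80 blue points lie between the line at 0 and the red points, and in L-15 medium 66 lie left of the line at 0.

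The A20 cells took no part in the choice of members and allow a test. Of the 94 members, 87 passed the filter on low counts, so that counts over them leave out genes hardly expressed in this line. The other members were AAEL021101, AAEL009018, AAEL025692, AAEL004273, AAEL001575, AAEL010242 and AAEL020339, whose counts did not exceed 18 reads in any A20 library. Levels in A20 cells are given as CPM scaled by the TMM method (trimmed mean of M-values) as in the fit. Between 10 μM and 0 μM heme, 5 of the 87 members were higher with heme, where 9.79% of the 12249 genes tested were, and 5 were lower, where 9.14% were (edgeR quasi-likelihood test with Benjamini-Hochberg adjustment, FDR below 0.0001). Neither share, 5.75% each way, was above that of all genes. The median log2 fold change was -0.98 over these members against -0.19 over all genes tested, and 70 of the 87 values were negative. The share of negative values over all genes was not counted. With the exact test in edgeR at the same FDR, 7 members were higher (18.8% of genes) and 20 lower (22.3% of genes), and at an FDR of 0.05 the quasi-likelihood test called 9 higher (30% of genes) and 39 lower (36.7% of genes). Every library with heme was above every library in 0 μM heme for 11 of the 87 members (31.4% of genes) and below for 46 (39.7% of genes). Scaled by library total, 6 were above (16.3% of genes) and 64 below (60.1% of genes).

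The libraries in 10 μM heme were unlike the other A20 libraries. Their TMM factors were 0.685 to 0.834, against 1.10 to 1.22 elsewhere, so scaling moves every value. With library size alone the median over all genes fell to -0.88 and that of the members to -1.64. By edgeR’s quasi-likelihood test 0 members were called higher (3.43% of genes) and 11 lower (17.3% of genes). In the same test 7 were higher and 64 lower at an unadjusted p under 0.05. The share of all genes was not counted at this unadjusted cutoff, here or below. Relative to the median of all genes the members were at -0.79 with TMM and -0.76 with library size. Replicate 1 in 10 μM heme differed from its replicates by a median of 0.33 to 0.36 on the log2 scale, against 0.15 between replicates 2 and 3. It was at least 1.5-fold above both of them for 40 of the 94 members and for 18.9% of genes with at least 5 CPM, in CPM by library total. Without that library 7 members were called higher (16.3% of genes) and 19 lower (17.3% of genes), with a median of -1.31.

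Heme in A20 cells called higher AAEL012654, AAEL022892, AAEL012659, AAEL011739 and AAEL010951, none of which has a role in the sources used. AAEL012654 was at 1.7, 1.74 and 1.40 CPM in 0 μM heme and at 5.93, 8.99 and 9.88 CPM in 10 μM heme, a log2 fold change of 2.36 (standard error 0.24, edgeR FDR 3.18e-05). It was the 1 gene called higher here that also changed by at least 2 in all 3 Aag2 experiments. AAEL022892 was at 15.5, 15.3 and 13.0 CPM and at 72.5, 68.3 and 57.3 CPM, a change of 2.17 (standard error 0.18, edgeR FDR 1.07e-05). In CPM by library total all 3 A20 groups of AAEL022892 had means above every Aag2 group, at 19.9 with FBS, 17.7 in 0 μM and 49.4 in 10 μM heme against at most 11.6, although the tables were scaled separately. The changes of AAEL012659, AAEL011739 and AAEL010951 were 2.08, 1.07 and 0.99. With library size alone these 5 changes were still positive, from 0.30 to 1.64, but none passed the threshold.

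The members called lower with heme in A20 cells were AAEL010270, AAEL017139, AAEL024741, AAEL023332 and AAEL009154. AAEL024741 was at 944, 1276 and 1207 CPM in 0 μM heme and at 247, 111 and 111 CPM in 10 μM heme, a log2 fold change of -2.87 (standard error 0.31, edgeR FDR 3.78e-05). Aag2 cells in Schneider’s medium showed the other order for this gene, from 43.0 ± 4.35 to 695 ± 24.8 CPM (SD, n = 3 each). AAEL010270 was at 76.9, 95.5 and 97.1 CPM in 0 μM heme, at 2.21, 0.73 and 0 CPM in 10 μM heme and at 0.26, 0 and 0 CPM with FBS, so it was all but confined to the 0 μM group in this line. AAEL017139 had a like order, with 31.9, 96.5 and 85.8 CPM in 0 μM heme, then 7.86, 3.83 and 2.70 CPM in 10 μM heme and 1.25, 1.35 and 1.20 CPM with FBS. AAEL009154 was the exception, with its highest level in FBS at 69.4 ± 4.19 CPM, then 53.0 ± 5.05 CPM in 0 μM heme and last 24.8 ± 3.16 CPM with heme (SD, n = 3 each). AAEL023332 changed by -1.79. These calls rested on the fit of all 3 groups. Fitted on the 10 μM and 0 μM groups alone, edgeR’s quasi-likelihood test called 0 members lower (0.302% of genes). It called 1 higher, AAEL022892 (1.23% of genes). Of the 84 members in that fit, 11 were higher and 33 lower at an unadjusted p under 0.05. No share of all genes was counted to set beside them. With each of the 9 libraries left out in turn, each of the 5 lower members passed in 1 or 2 of the fits, AAEL022892 in 7, and the other members called higher in 1 or 2.

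**Figure D5:**
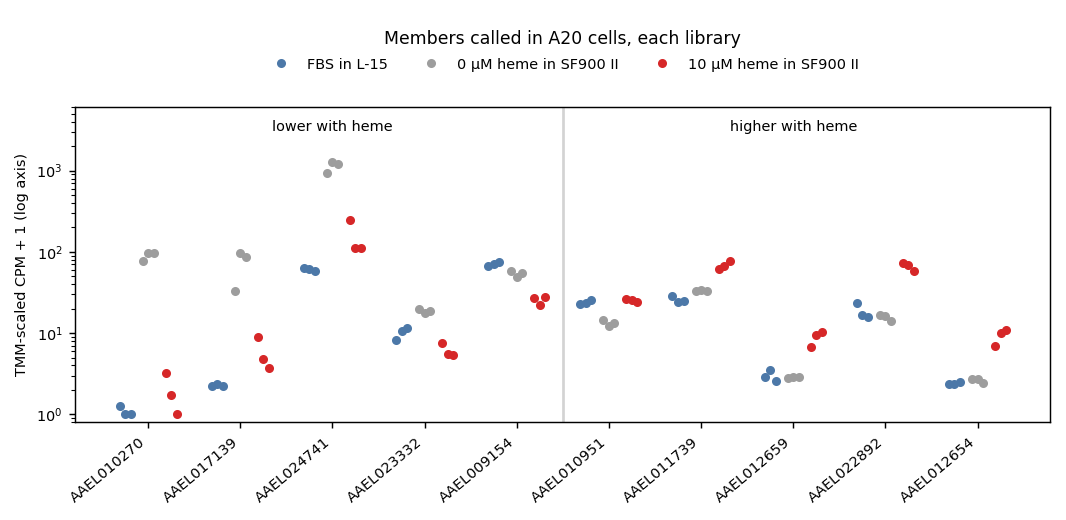
Levels in A20 cells (TMM-scaled CPM + 1, log axis) of the 10 members that passed the threshold between 10 μM and 0 μM heme, with each library as a point. For the 5 genes on the left the 10 μM points lie below all 0 μM points, and for the 5 on the right above them.

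In A20 cells the summed level of the members was highest in serum-free medium without heme. It was 3265 ± 261 CPM with FBS, 9318 ± 279 CPM at 0 μM heme and 6092 ± 1513 CPM at 10 μM heme (SD, n = 3 each, TMM-scaled). A few genes carried much of this sum. AAEL001061, AAEL007383, AAEL007385 and AAEL026751 held 39.7% to 42.8% of it with FBS, 49.8% to 53.0% at 0 μM and 62.6% to 64.2% at 10 μM heme. Between 0 μM heme and FBS every library was higher in 0 μM heme for 58 of the 87 members, against 28.1% of all genes tested, and lower for 6, against 28.9%. Scaled by library total the numbers were 61 (34.2% of genes) and 5 (21.9%). The median log2 fold change was 0.91 over the members and -0.01 over all genes. At the FDR of 0.0001 edgeR’s quasi-likelihood test called 1 member higher, AAEL024741 with a change of 4.26 (standard error 0.33, FDR 7.24e-05), where 0.4% of genes were called. It called 0 lower (0.0327% of genes). At an unadjusted p under 0.05 in this test 51 members were higher and 5 lower. At an FDR of 0.05 the same edgeR test called 42 members higher (15% of genes) and 4 lower (14.5% of genes). The exact test called 17 higher (6.34% of genes) and 2 lower (2.87% of genes) at the FDR of 0.0001. DESeq2 called 18 higher (6.37% of genes) and 3 lower (6.11% of genes) at the same FDR. Without replicate 1 in 10 μM heme, which entered the same fit, the quasi-likelihood test called 19 higher (2.97% of genes) and 1 lower (1.57% of genes).

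In 34 of the 87 members every A20 library in 0 μM heme was above every library of both other groups, as in 18.4% of genes, and in 2 every one was below, as in 17.2% of genes. Scaled by library total the numbers were 50 (28.7% of genes) and 1 (8.87% of genes). AAEL013458 was at 5.02, 2.24 and 1.89 CPM with FBS, at 51.3, 68.9 and 64.5 CPM in 0 μM heme and at 32.4, 2.73 and 2.75 CPM in 10 μM heme. For the ZIP family transporter AAEL014762 the values were 48.5, 46.3 and 46.7 CPM with FBS, 167, 192 and 180 CPM in 0 μM heme, and 156, 38.5 and 32.3 CPM in 10 μM heme. Both genes show replicate 1 in 10 μM heme near the 0 μM level and the other replicates near the FBS level, and neither passed the threshold between 10 μM and 0 μM heme (edgeR FDR 0.036 and 0.0492). For the transferase AAEL014246 the levels were 24.2 ± 20.9 CPM with FBS, 114 ± 27.1 CPM at 0 μM heme and 31.0 ± 12.7 CPM at 10 μM heme (SD, n = 3 each), and FBS replicate 1 stood apart at 48.3 CPM. The cysteine synthase AAEL008467, the most strongly changed member in Aag2 cells, did not exceed 13.0 CPM in any A20 library, and its change of -0.82 (standard error 1.00, edgeR FDR 0.485) did not pass. Replicate 1 in 0 μM heme was at 13.0 CPM against 1.39 and 1.91 CPM in the others, and without it the change was 0.89, while without replicate 1 in 10 μM heme it was -2.54. Cystinosin AAEL006113 changed by -0.70 (standard error 0.33, edgeR FDR 0.0846) and AAEL008664 by -0.06 (standard error 0.17, edgeR FDR 0.785).

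Between 10 μM heme and FBS in A20 cells, 5 of the 87 members were higher, where 4.47% of genes were called, and 1 was lower, where 6.38% were (edgeR quasi-likelihood, FDR below 0.0001). Those higher were AAEL001061, AAEL011739, AAEL022892, AAEL012654 and AAEL020894, and the lower one was AAEL009154. AAEL001061, the most abundant member, was at 371, 361 and 323 CPM with FBS and at 964, 2075 and 2039 CPM in 10 μM heme, a log2 fold change of 2.27 (standard error 0.25, edgeR FDR 7.6e-05). In 0 μM heme it was at 1384, 1554 and 1452 CPM, so that it was high in SF900 II at either dose. The median log2 fold change over the members was 0.36 against 0.02 over all genes. It was -0.13 without replicate 1 in 10 μM heme, and -0.18 with library size alone, where the median of all genes was -0.56. The exact test called 13 higher (14.9% of genes) and 5 lower (17.2% of genes), an FDR of 0.05 gave 24 (29.3% of genes) and 13 (30% of genes), and leaving out replicate 1 in 10 μM heme gave 7 (12.2% of genes) and 3 (13.9% of genes). With any 1 library left out the numbers were 0 to 7 and 0 to 3. Fitted on these 2 groups alone, edgeR’s quasi-likelihood test called 0 of the members and 0 genes in either direction, with 20 members higher and 12 lower at an unadjusted p under 0.05. These comparisons share libraries with each other and are given side by side only.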

How the data were processed

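RNA-seq of cultured Ae. aegypti cells was analysed from the deposited tables of 4 experiments. The authors mapped the reads with HISAT2 2.1.0 (AaegL5 build). They discarded alignments of mapping quality below 10 in SAMtools, and BEDtools 2.19.1 gave the counts. The deposited values are whole-number counts per gene without normalization, and use of strand is not given in the sources used here. Members and lists were chosen with earlier results of these data known. Group means, SD and CPM were computed with pandas 2.3.3. In A20 cells, genes were kept by filterByExpr and scaled by TMM, and the 9 libraries were fitted by edgeR 4.0.16 (quasi-likelihood F test, Benjamini-Hochberg adjustment) in R 4.3.3, with the FDR of 0.0001 of the study. The standard error is the log2 fold change divided by the square root of F. An exact permutation test of 3 against 3 libraries cannot go below p = 0.1. A simulation of 12002 genes stood for 10 μM against 0 μM heme in A20 cells. The test recovered 43.5% of 200 genes changed 4-fold, with 0 false calls. Simulated libraries varied around a common mean per gene, without the deviating replicate 1 in 10 μM heme or the differences in scaling. The changed genes were picked from those with more reads. These rates therefore do not carry over to the measured libraries. Alternatives were the exact test, DESeq2 1.42.0, RLE factors, library size alone, other filters, a fit of 2 groups, the replicate number as a block, an FDR of 0.05 and each library left out. For the choice of members they were other pseudocounts, thresholds and scaling, and no centring. TMM scaling for the position of FBS and library totals for groups that do not overlap in A20 cells were added after the values were seen.

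Named genes are the 10 members with the largest smallest change, the 10 with the highest mean level with heme, those called in A20 cells between 10 μM and 0 μM heme, those nearest each threshold, and members given a role by the study. Members picked out for the gap between media, the change at 48 h, the FBS position or a comparison with FBS in A20 cells were chosen after their values were seen. Gene lists by annotation and promoter motifs were planned but are not reported here, since fewer than 80% of members had a description and no promoter sequences were given. Figures were drawn with matplotlib 3.10.9.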

Additional observations from a re-analysis of the deposited data

Results flagged for a closer look

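In A20 cells 5 of 87 members passed the threshold as lower in 10 μM than in 0 μM heme, as 9.14% of genes did, and 46 had every library lower, as 39.7% of genes did. For these 5 every Aag2 library with added heme was above every library in 0 μM heme, or with FBS alone at 48 h. The log2 fold changes in A20 cells were -6.45 for AAEL010270, -3.88 for AAEL017139, -2.87 for AAEL024741, -1.79 for AAEL023332 and -1.09 for AAEL009154 (edgeR quasi-likelihood, TMM scaling). The difference between the lines was not tested, and the direction in Aag2 cells was fixed by the choice of members.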

How the results depend on the processing

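The number of members was 94, and 139 with a pseudocount of 0.5 CPM, 44 with 5 CPM, 99 without centring, 96 with TMM scaling, 41 with a threshold of 1 and 194 with 0.5 in all 3 experiments. Leaving out 1 of the 18 libraries gave 88 to 99.

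Shares of all genes tested follow each pair of counts in parentheses, higher then lower. In A20 cells, 10 μM against 0 μM heme, 5 members were called higher and 5 lower (9.79%, 9.14%). The exact test called 7 and 20 (18.8%, 22.3%), DESeq2 9 and 18 (21.8%, 21.6%), library size alone 0 and 11 (3.43%, 17.3%), the fit of 2 groups 1 and 0 (1.23%, 0.302%), and an FDR of 0.05 9 and 39 (30%, 36.7%). Leaving out 1 library gave 0 to 7 higher and 0 to 19 lower, the highest numbers being those without replicate 1 in 10 μM heme. The median of -0.98 became -1.64 with library size alone (all genes -0.19 and -0.88) and -1.31 to -0.77 with 1 library left out.

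For 0 μM heme against FBS, 1 was higher and 0 lower (0.4%, 0.0327%). The exact test gave 17 and 2 (6.34%, 2.87%), DESeq2 18 and 3 (6.37%, 6.11%), library size alone 0 and 0 (0.171%, 0%), no filter 4 and 0 (0.695%, 0.178%), the fit of 2 groups 8 and 1 (1.42%, 0.175%), and an FDR of 0.05 42 and 4 (15%, 14.5%). With 1 library left out there were 0 to 19 higher and 0 to 1 lower. The median of 0.91 was 1.03 with library size alone and 0.85 to 0.93 with 1 library left out.

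For 10 μM heme against FBS, 5 were higher and 1 lower (4.47%, 6.38%). The exact test and DESeq2 each gave 13 and 5 (14.9%, 17.2% and 16.7%, 18.1%), library size alone 1 and 2 (1.57%, 11.8%), the fit of 2 groups 0 and 0 (0%, 0%), and an FDR of 0.05 24 and 13 (29.3%, 30%). With 1 library left out there were 0 to 7 higher and 0 to 3 lower. The median of 0.36 turned to -0.18 with library size alone, where that of all genes went from 0.02 to -0.56, and ranged from -0.13 to 0.51 with 1 library left out. The cause of these differences was not tested.

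No pairing of the A20 libraries by replicate number was seen. Deviations of log2 CPM from the group mean correlated at -0.02 to 0.13 between same-numbered libraries. This cannot show whether the replicates were paired by design. With the replicate block 1 member was higher and 0 lower in 10 μM against 0 μM heme (2.41%, 2.01%), 0 and 0 in 0 μM heme against FBS (0.098%, 0.00816%), and 0 and 0 in 10 μM heme against FBS (0.0571%, 0.237%). AAEL022892 was the one called higher of the 10 members of the first comparison under the block. Each of those 10 kept its sign under all alternatives run.

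Depth kept 7 members out of the A20 fit, with at most 18 reads in any library, but low counts reached beyond these. In CPM by library total, 68 of the 94 members had a mean of at least 1 CPM with FBS in A20 cells. The numbers were 81 in 0 μM and 64 in 10 μM heme there, and 67 with FBS alone in Aag2 cells at 48 h.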
